A study of Mus musculus with 6 samples.

Results

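The genes described here are the keratins and keratin associated proteins of the hair shaft and the inner root sheath, together with Krt36 and Krt84, a pair of hair type keratins related to the scales of mouse tail skin. Members were chosen by gene symbol: every Krtap row, and the hair and root sheath keratins numbered in the Krt25 to Krt28, Krt31 to Krt36, Krt71 to Krt74 and Krt81 to Krt87 runs. The rule found 57 of the 19618 genes listed. They comprised 2 tail scale keratins, 8 inner root sheath keratins, 11 hair shaft keratins and 36 keratin associated protein genes. Krt85 was not analysed here.

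RNA sequencing was done on keratinocytes of mouse tail skin taken at 4 months of age, in 2 groups of 3 samples. The knockout mice were homozygous for a floxed Gpr161 allele and carried K14cre, a Cre recombinase driven by the keratin 14 promoter, which is active in basal keratinocytes. Gpr161 encodes a receptor of the primary cilium that restrains hedgehog signalling. By their labels, the controls lacked K14cre. Among them, 1 mouse had both Gpr161 alleles floxed and the rest were heterozygous, so the groups differed in K14cre and, in part, in the number of floxed alleles. Which control library came from the homozygous mouse cannot be told from the column names, which give only the group and a tag such as DE679. Values are given below in the order DE679, DE685 and DE688 for the knockouts and DE680, DE684 and DE689 for the controls. Nothing in the labels says how the samples relate to litters or days, and p-values measure only the spread between these samples.

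Hair is built by follicle cells that switch from division to keratin synthesis. Cells of the hair shaft make hair keratins as pairs of an acidic type I and a basic type II chain, and then embed the filaments in a matrix of keratin associated proteins. Cells of the inner root sheath, which moulds the growing shaft, make a separate set of keratins and trichohyalin. In mouse tail skin, the epidermis between follicles is patterned into scales, which make hair type keratins, and interscale skin, which makes Krt10 and granular layer proteins.

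Estimated counts per library summed to between 17157842 and 25344401. Levels are given as CPM, the count scaled by library total after TMM (trimmed mean of M values) scaling, and a count of 3, taken as the floor of detection, corresponded to 0.117 to 0.173 CPM. Changes are log2 fold changes of knockout over control from edgeR's quasi-likelihood test over 15422 genes, with p-values adjusted by Benjamini-Hochberg. The keratinocyte markers Krt5 (11188 to 15684 CPM), Krt14 (8840 to 11458 CPM) and Krt10 (12422 to 25245 CPM) were high in all 6 libraries. Gpr161 itself stood at 26.7, 33.6 and 25.9 CPM in the knockout libraries and at 30.1, 32.2 and 31.8 CPM in the controls (change -0.13, SE 0.11, edgeR adjusted p = 0.553), so its level did not check the labels. Libraries DE685 (knockout) and DE684 (control) held 3311 and 5291 counts of Y-linked genes, against 0 to 3 in the other libraries.

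No member differed between knockout and control at an adjusted p under 0.05. Of the 57 members, 36 passed the filter on low counts and 0 were called, where 1.60% of all genes tested were called (1.24% higher and 0.357% lower in the knockouts). At an unadjusted p under 0.05 there was 1 of 36 members, Krtap3-3, against 19.0% of all genes tested. DESeq2 also called 0 of the 36, with 2 without an adjusted p, where it called 5.70% of all genes. The knockout and control libraries overlapped for every member tested, whereas they did not overlap for 25.6% of all genes tested (12.8% in each direction). The change was above 0 for 14 members and below 0 for 22, with a median of -0.26 against -0.0036 over all genes tested. With 1 library left out the median of the members tested ran from -0.43 (without DE688) to -0.10 (without DE689). The remaining 21 members had at most 22 counts in any library and a mean of at most 0.371 CPM, and 15 of them had a count of 0 in at least 1 library. They were Krt26, Krt72, Krt74 (a pseudogene in the annotation) and 18 Krtap genes. In the edgeR fit without a filter, 0 of the 57 members were called, where 1.17% of all genes were. In that fit 2 of these 21 had an unadjusted p under 0.05, beside 3201 of all 19618 genes. The smallest adjusted p of the 21 was 0.252. Of the 21, the groups did not overlap for 4 (1 higher and 3 lower), named for that after their values were seen. The share was 25.6% among genes that passed the filter, and it was not computed among genes that did not. Krt74 had 9, 3 and 5 counts in the knockouts and 2, 1 and 0 in the controls. Krtap19-3, Krtap2-4 and Krtap9-3 were lower in each knockout library than in any control, and Krtap9-3 had 4, 1 and 7 counts against 9, 8 and 21.

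The region just before the start of a gene is shown for 6 members, to set the scale keratins beside a shaft keratin, a sheath keratin and 2 abundant matrix genes. RefSeq promoter windows (build GRCm38.p6) were found for 45 of the 57 members. The letters TATANAA, the core of a TATA box, were searched on both strands in the 250 bases before the start. They occurred in 39 of the 45 member windows (86.7%) and in 10.4% of the 32851 windows of all genes. The 120 bases before each start are printed on the gene's strand, with TATANAA matches in capitals.
Krt36, chr11:100105627-100105746, minus strand: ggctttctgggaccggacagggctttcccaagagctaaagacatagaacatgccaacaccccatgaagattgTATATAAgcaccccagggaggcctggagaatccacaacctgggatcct
Krt84, chr15:101532821-101532940, minus strand: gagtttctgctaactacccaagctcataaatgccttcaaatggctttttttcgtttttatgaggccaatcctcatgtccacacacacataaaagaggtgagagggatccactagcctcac
Krt32, chr11:100088270-100088389, minus strand: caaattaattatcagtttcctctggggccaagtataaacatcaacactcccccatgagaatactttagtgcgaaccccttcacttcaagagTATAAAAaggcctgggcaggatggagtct
Krt25, chr11:99322952-99323071, minus strand: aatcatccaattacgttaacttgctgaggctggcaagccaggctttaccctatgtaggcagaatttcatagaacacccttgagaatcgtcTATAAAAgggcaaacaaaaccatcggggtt
Krtap3-3, chr11:99550864-99550983, minus strand: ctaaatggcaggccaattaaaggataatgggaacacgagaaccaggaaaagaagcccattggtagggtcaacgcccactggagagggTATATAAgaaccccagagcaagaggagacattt
Krtap3-1, chr11:99566631-99566750, minus strand: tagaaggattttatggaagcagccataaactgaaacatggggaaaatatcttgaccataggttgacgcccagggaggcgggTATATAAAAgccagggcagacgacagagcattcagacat
All but Krt84 held a TATANAA match in the printed window. By group, the letters were in 30 of 31 Krtap windows, 6 of 7 inner root sheath windows, 2 of 5 hair shaft windows and 1 of 2 tail scale windows. CTTTGA, a core recognised by Lef1 and its relatives, was in 12 of 45 member windows (26.7%) and 4 of the 5 hair shaft windows, against 13.8% of all windows. Those 4 were Krt31, Krt32, Krt33b and Krt34, and only 5 of the 11 shaft keratins had a window. The transcripts of Krt31, Krt33b and Krt34 were 93.5%, 93.2% and 95.1% identical to that of Krt33a where aligned, so their windows are not independent. The Gli consensus GACCACCCA was in 0 of 45, and in 0.225% of all windows. These are matches of letters in a window and show no binding.

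Krt36 and Krt84 were among the most abundant transcripts of these keratinocytes, and both spread across the libraries in the same order. By mean CPM, Krt84 ranked 6 and Krt36 ranked 9 of the 19618 genes, and together they took 94.5% to 97.4% of all member counts and 0.950% to 1.98% of all counts in a library. Krt36 is a type I (acidic) chain, and Krt84 a type II (basic) chain. Krt36 lies at chromosome 11, 100102007 to 100105626, and Krt84 at chromosome 15, 101525026 to 101532820 (GENCODE M21, GRCm38).

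Krt36 stood at 6613, 3685 and 5791 CPM in the knockout libraries and at 7165, 4459 and 7680 CPM in the control libraries. Krt84 stood at 10077, 5716 and 8834 CPM in the knockout libraries and at 10700, 6636 and 12237 CPM in the controls. For both genes the highest value was in control DE689, the lowest in knockout DE685 and the next lowest in control DE684, so the groups overlapped. The means were 5363 ± 1510 and 6435 ± 1731 CPM for Krt36 (SD, n = 3 each), a change of -0.26 (SE 0.25, 95% interval -0.85 to 0.32, edgeR adjusted p = 0.611). For Krt84 they were 8209 ± 2247 and 9858 ± 2894 CPM, a change of -0.26 (SE 0.26, 95% interval -0.87 to 0.34, edgeR adjusted p = 0.620). Leaving out knockout DE685 brought the change of Krt36 to -0.05, and leaving out control DE684 brought it to -0.47. In bulk RNA such as this, fewer cells of a type and less RNA per cell cannot be told apart.

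**Figure D1:**
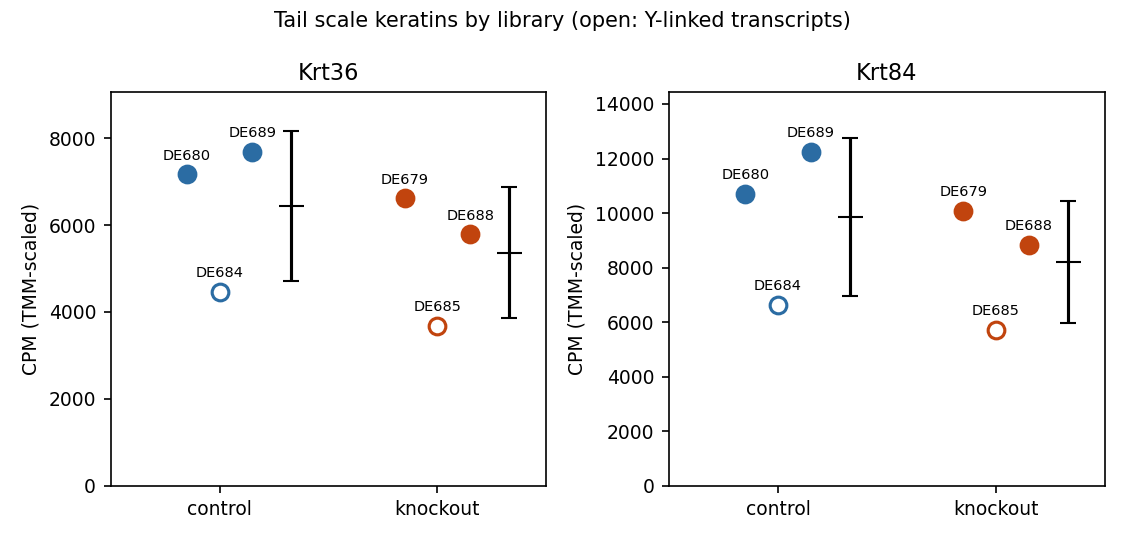
Levels of Krt36 and Krt84 (y axis, CPM after TMM scaling) in each of the 3 control and 3 knockout libraries, with bars for the mean and SD. Open circles mark the 2 libraries with Y-linked transcripts, which hold the lowest values, 3685 and 4459 CPM for Krt36, while the filled circles lie between 5791 and 7680 CPM.

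The levels of the scale keratins moved with the presence of Y-linked transcripts. Among the libraries without them, both knockouts lay below both controls for Krt36 and for Krt84, and in the pair of libraries with them the knockout also lay below the control. The same order in both strata was found for 18.5% of all genes tested. With Y-linked transcripts as a covariate in edgeR, the change of Krt36 stayed at -0.26 with an adjusted p of 0.0851, and that of Krt84 at -0.26 with an adjusted p of 0.119. That fit left 0 of 36 members called, where it called 2.65% of all genes, and 16 of 36 at an unadjusted p under 0.05, where 21.2% of all genes were. Without both Y-linked libraries, a choice made after seeing the data, 0 of 38 members were called, against 0.557% of all genes, and 17 had an unadjusted p under 0.05, against 16.7%. The stratum with Y-linked transcripts holds 1 library of each genotype, and whether sex had a part in the spread was not tested.

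The scale keratin pair kept a near constant ratio while its summed level varied 2.12-fold. Counts of Krt84 over Krt36 were 1.52, 1.55 and 1.53 in the knockout libraries and 1.49, 1.49 and 1.59 in the controls. Per kilobase of exon the ratio was 0.942 to 1.01, that is, nearly equal RNA levels of the type I and the type II gene. Protein was not measured. Krt10, the keratin of interscale and other differentiating epidermis, had another order of libraries. It stood at 14935, 17284 and 12422 CPM in the knockouts and at 17479, 25245 and 13845 CPM in the controls, highest in DE684, where the scale keratins were next to lowest. Its change was -0.34 (SE 0.21, edgeR adjusted p = 0.423). Lor and Flg, the other interscale genes listed, were also highest in DE684. Their changes were -0.29 (SE 0.10, edgeR adjusted p = 0.196) and -0.24 (SE 0.24, edgeR adjusted p = 0.620). Lor was lower in each knockout library than in any control, as were 12.8% of all genes tested. The summed scale keratins over Krt10 ranged from 0.439 in control DE684 to 1.44 in control DE689. Slc1a3, a transporter used as a marker of basal cells of the scale, stood at 4.21 to 6.88 CPM in the 6 libraries (change -0.06, edgeR adjusted p = 0.918).

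The inner root sheath keratins were low and did not differ between the groups beyond their spread. Of 8 members, 5 were tested, 0 passed, and the changes ran from -0.57 to 0.08 with a median of -0.04, which ran from -0.37 (without DE688) to 0.25 (without DE679 or DE684). Their sum was 19.4, 40.9 and 50.4 CPM in the knockout libraries and 38.7, 57.8 and 20.3 CPM in the control libraries. Both groups thus held a low library, knockout DE679 and control DE689.

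Krt25, a type I keratin of the sheath, stood at 5.80, 13.4 and 17.6 CPM in the knockouts and at 12.6, 20.2 and 5.75 CPM in the controls (change -0.07, SE 0.50, edgeR adjusted p = 0.959). Krt71, a type II keratin of the sheath, stood at 4.74, 13.3 and 16.7 CPM and at 12.5, 17.2 and 5.03 CPM (change 0.0029, SE 0.52, edgeR adjusted p = 0.998). The 2 genes lie on different chromosomes, 11 and 15, and had the same 4 libraries at the top in the same order (DE684, DE688, DE685, DE680), with counts of Krt71 at 0.818 to 0.991 of those of Krt25. Krt27 and Krt28, the other type I chains tested, had means of 3.24 and 5.17 CPM over the 6 libraries and changes of -0.04 (SE 0.37) and 0.08 (SE 0.25). Krt73, a type II keratin of the sheath cuticle, stood at 2.41, 4.50 and 4.97 CPM in the knockouts and at 4.79, 9.51 and 3.41 CPM in the controls (change -0.57, SE 0.42, edgeR adjusted p = 0.491). DE684 was the highest library for 4 of the 5 genes, and the lowest was DE679 for 3 and DE689 for 2.

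The hair shaft keratins were also low, and 9 of the 11 had a change above 0, none past the test. The median change was 0.53 with a range of -0.50 to 1.43, against a median of -0.0036 over all genes tested. It was 0.32 without knockout DE688 and 0.94 without control DE684. Their sum was 37.8, 73.4 and 91.1 CPM in the knockout libraries and 36.0, 62.9 and 66.8 CPM in the controls, so the groups overlapped. Means over the 6 libraries ran from 0.813 CPM for Krt82 to 20.1 CPM for Krt87.

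Krt33b and Krt33a, keratins of the shaft cortex, had the largest within-group SDs among the shaft keratins, 1.04 and 1.00 on the log2 scale. Krt31, a type I cortex keratin, stood at 2.80, 8.77 and 9.06 CPM in the knockouts and at 2.57, 4.78 and 1.51 CPM in the controls (change 1.22, SE 0.53, 95% interval -0.0026 to 2.44, edgeR adjusted p = 0.264). Krt33a and Krt33b, close copies of Krt31, followed it. Krt33a stood at 0.890, 5.02 and 4.86 CPM and at 0.709, 2.67 and 0.595 CPM (change 1.43, SE 0.75, edgeR adjusted p = 0.340). Krt33b stood at 1.57, 6.46 and 6.02 CPM and at 1.24, 4.51 and 0.674 CPM (change 1.13, SE 0.74, edgeR adjusted p = 0.442). In all 3 genes knockouts DE685 and DE688 were the highest libraries, and knockout DE679 lay below control DE684. Krt83, a type II keratin of the shaft, stood at 2.97, 7.44 and 9.60 CPM in the knockouts and at 3.37, 4.38 and 3.57 CPM in the controls (change 0.82, SE 0.39, edgeR adjusted p = 0.298). Knockout DE679 was the lowest library for Krt83, so that the groups overlapped there too.

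Among the other type II shaft keratins, Krt81 stood at 1.10, 5.19 and 3.73 CPM in the knockouts and at 1.46, 3.24 and 3.37 CPM in the controls (change 0.30, SE 0.54). Krt86 stood at 1.52, 2.37 and 2.68 CPM and at 0.798, 3.55 and 0.317 CPM (change 0.50, SE 0.73). Reads of these close copies could be split between them. The annotated transcripts of Krt81 and Krt86 were 95.2% identical over 1397 aligned bases, and those of Krt83 and Krt81 95.1% over 1383. Krt34, a type I chain, had a mean of 1.03 CPM and a change of 0.71 (SE 0.62). Its transcript was 95.1% identical to that of Krt33a over 1123 aligned bases. Estimated counts that were not whole, as arise when a read is shared between genes, were found in at least 1 library for 21 of the 36 members tested. Over all genes only 53.5% to 58.3% of the values in a library were whole. Their share with a value not whole in at least 1 library was not computed.

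The keratins of the early shaft and the cuticle, Krt35, Krt32 and Krt82, had within-group SDs of 0.637, 0.314 and 0.564 on the log2 scale. Krt35, a type I keratin made early in shaft formation, stood at 9.91, 14.3 and 20.1 CPM in the knockouts and at 9.53, 15.9 and 5.27 CPM in the controls (change 0.53, SE 0.40, edgeR adjusted p = 0.502). Krt32, a type I keratin of the cuticle, stood at 5.76, 7.27 and 6.88 CPM and at 4.39, 7.36 and 4.20 CPM (change 0.32, SE 0.24, edgeR adjusted p = 0.512). An exon of Krt32 overlaps the gene Gm11571 on the opposite strand, and whether the counting used strand is not given in the sources used here. Krt82, a type II keratin of the cuticle, had a mean of 0.813 CPM and a change of -0.29 (SE 0.61).

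Krt87 stood apart from the other shaft keratins in its order of libraries. It stood at 10.1, 13.8 and 26.1 CPM in the knockout libraries and at 10.7, 14.4 and 45.7 CPM in the controls (change -0.50, SE 0.56, edgeR adjusted p = 0.665). Control DE689 was its highest library, whereas DE689 was the lowest library for 7 of the 11 shaft keratins. This gene was singled out after its values were seen.

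**Figure D2:**
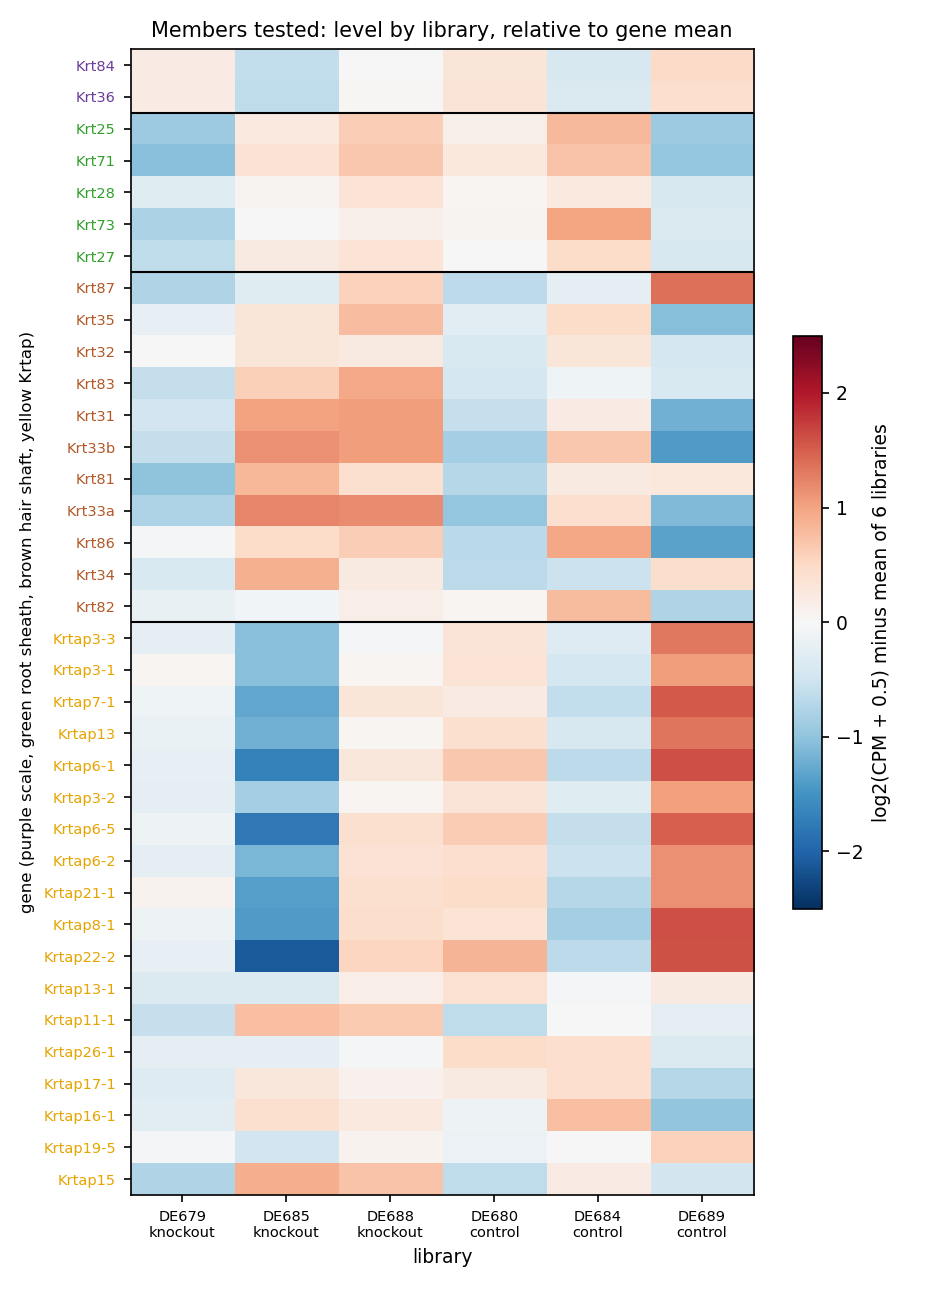
Levels of the 36 members tested (rows, in order of group and mean CPM) in the 6 libraries (columns), as log2(CPM + 0.5) minus the gene's mean over the libraries. Most keratin associated protein rows and both scale keratin rows are red in control DE689 and blue in knockout DE685, whereas the inner root sheath rows are blue in DE679 and DE689.

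The keratin associated proteins were lower in the knockout libraries on average, but within a wide spread that left every gene short of the threshold. Of 36 genes 18 were tested and 0 were called, 15 changes were below 0 and 3 above, and the median change was -0.69. That median was -0.36 without control DE689 and -0.42 without knockout DE685. It was -0.96 without control DE684 and -0.97 without knockout DE688. Their sum was 397, 200 and 490 CPM in the knockout libraries and 568, 323 and 1082 CPM in the controls, with means of 362 ± 148 and 658 ± 387 CPM (SD, n = 3 each). Control DE684 lay below knockouts DE679 and DE688. The genes encode 3 classes of matrix protein: high sulfur, ultrahigh sulfur and high glycine-tyrosine. Of these, 9 of 16, 1 of 8 and 8 of 10 genes were tested, and 2 further genes fell in no class and were not tested.

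Krtap3-3 and Krtap3-1, high sulfur genes on chromosome 11, had the highest mean CPM among the Krtap genes. Krtap3-3 (chromosome 11, 99550130 to 99550865) stood at 91.0, 51.5 and 103 CPM in the knockout libraries and at 133, 84.8 and 265 CPM in the controls. DE684 was the only control library below knockouts DE679 and DE688. The means were 82.0 ± 27.2 and 161 ± 93.1 CPM (SD, n = 3 each), a change of -0.97 (SE 0.41, 95% interval -1.92 to -0.02), with an unadjusted p of 0.047 and an edgeR adjusted p of 0.257. Without control DE689 the change was -0.41 (edgeR adjusted p = 0.562), and without control DE684 it was -1.28. Krtap3-1 stood at 82.2, 38.5 and 82.7 CPM in the knockouts and at 101, 58.2 and 164 CPM in the controls (change -0.66, SE 0.40, edgeR adjusted p = 0.400). Krtap3-2 stood at 22.2, 14.5 and 27.6 CPM and at 33.3, 21.6 and 54.9 CPM (change -0.76, SE 0.34, edgeR adjusted p = 0.278). Krtap3-2 and Krtap3-3 were 98.7% identical over 373 bases of transcript, so the counts of either are uncertain where reads could be shared.

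Krtap13, a high sulfur gene on chromosome 16, stood at 52.2, 25.2 and 60.4 CPM in the knockouts and at 77.3, 44.1 and 149 CPM in the controls (change -0.97, SE 0.45, edgeR adjusted p = 0.293). The order of libraries was that of the Krtap3 genes, on another chromosome. The 9 high sulfur genes tested had a median change of -0.49 (-0.32 without control DE680 and -0.73 without knockout DE688), with 6 below 0 and 3 above. The 3 above 0 were Krtap11-1, Krtap15 and Krtap16-1, with means of 3.67, 0.439 and 0.654 CPM. They were named after their values were seen.

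The high glycine-tyrosine genes, which encode small proteins of the cortex matrix, all had changes below 0. These 8 genes had a median change of -0.89 and a range of -1.18 to -0.59, with adjusted p-values of 0.347 to 0.589 in edgeR. Without control DE689 the median was -0.16, and without knockout DE685 it was -0.54. It was -1.28 without control DE684 and -1.31 without knockout DE688. Krtap7-1 stood at 56.3, 24.5 and 75.0 CPM in the knockouts and at 70.0, 39.8 and 177 CPM in the controls (change -0.87, SE 0.56, edgeR adjusted p = 0.434). Krtap6-1 stood at 26.2, 9.0 and 37.0 CPM and at 48.5, 19.1 and 93.5 CPM (change -1.15, SE 0.61, edgeR adjusted p = 0.347). In both genes DE685 was lowest and DE689 highest. The transcript of Krtap6-1 was 97.7% identical to that of 1110025L11Rik over 264 aligned bases, 44.4% of its length. Without control DE689 the changes of Krtap7-1 and Krtap6-1 were -0.07 and -0.48. The change of Krtap7-1 was -1.24 without control DE684, and that of Krtap6-1 was -1.60 without knockout DE688.

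Within the libraries that lacked Y-linked transcripts and within the pair that held them, the knockouts lay below the controls for 10 of the 18 Krtap genes tested and for both scale keratins. They lay above in both strata for 3 of the 11 shaft keratins, Krt31, Krt33a and Krt33b. Over all genes tested these shares were 18.5% and 18.4%. With Y-linked transcripts as a covariate, 11 of the 18 Krtap genes had an unadjusted edgeR p under 0.05, against 21.2% of all genes tested. Many Krtap genes shared their highest and lowest libraries, so these 11 are not independent of each other. The smallest edgeR adjusted p of the 18 was 0.0562, for Krtap6-1.

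**Figure D3:**
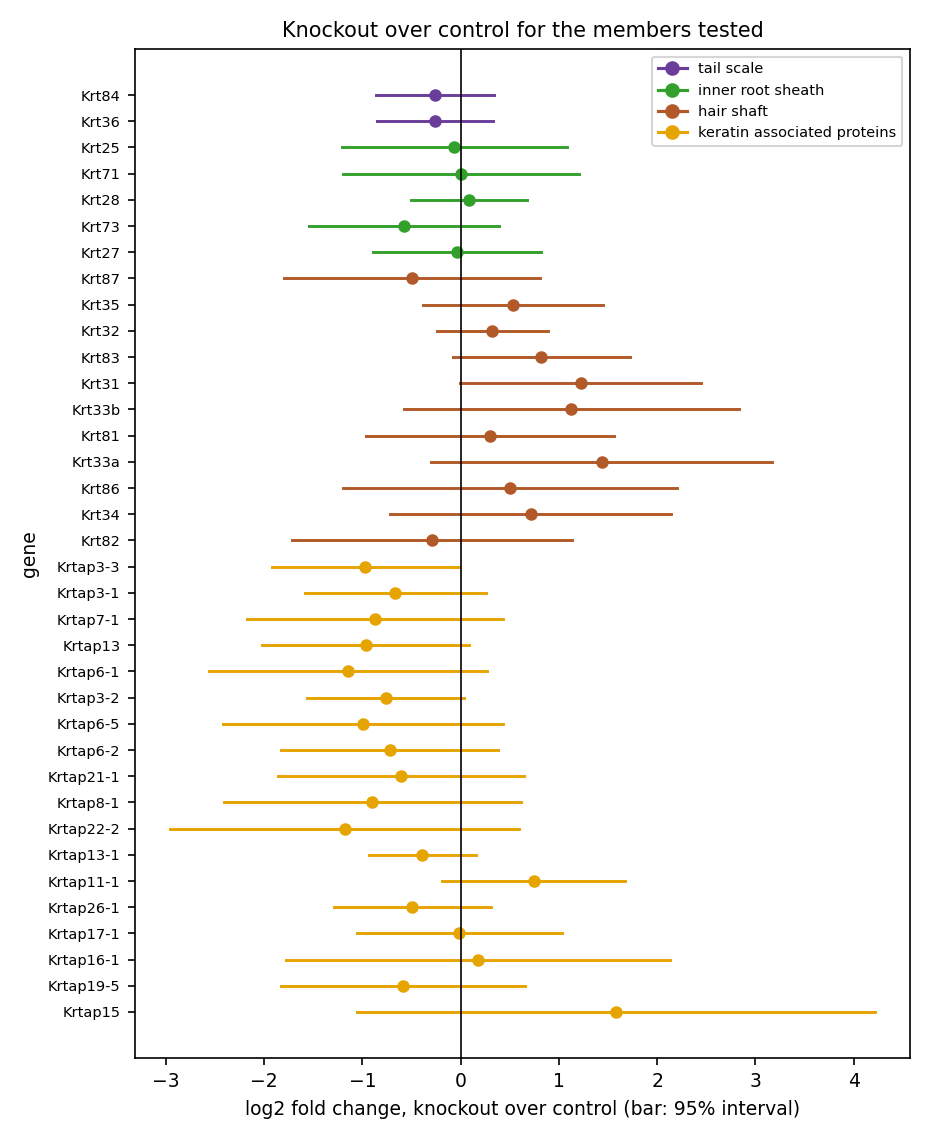
Log2 fold change of knockout over control (x axis) for the 36 members tested, with 95% intervals as bars and colours for the 4 member groups. Of 18 keratin associated protein genes 15 lie left of 0, of 11 shaft keratins 9 lie right of 0, and the interval of Krtap3-3 ends at -0.02.

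The scale keratins and most of the matrix genes had their highest and lowest values in the same libraries. Both scale keratins and 12 of the 18 Krtap genes tested, 3 of them on chromosome 11 and 9 on chromosome 16, were highest in control DE689 and lowest in knockout DE685. These 12 genes included all 8 of the high glycine-tyrosine class. The 2 libraries with Y-linked transcripts held the 2 lowest values for 13 of the 36 members (36.1%), against 8.10% of all genes tested, and those 13 were the scale keratins and 11 Krtap genes. None of the 5 inner root sheath or 11 shaft keratins had those 2 libraries lowest. Outside the members, those 2 libraries were lowest for 5 of the 14 hair regulators tested and 3 of the 4 immune markers described below. They were lowest for 1 of the 10 structural genes and enzymes of hair tested and 0 of the 5 melanocyte markers. The libraries between were not in the same order throughout: DE679 lay above DE688 in Krt36 and Krt84, and below it in Krtap3-3, Krtap13, Krtap7-1 and Krtap6-1. The Krtap sum was nonetheless small, at 2.13% to 5.43% of the summed counts of the scale keratins.

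**Figure D4:**
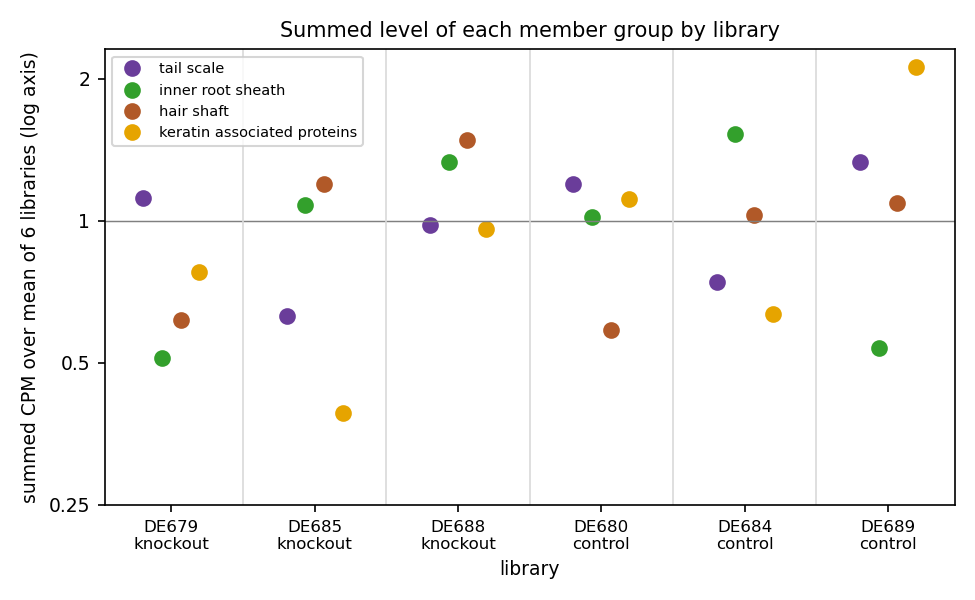
Summed CPM of each member group in a library, divided by the mean of that sum over the 6 libraries (y axis, log scale). The scale keratins and the keratin associated proteins are lowest in knockout DE685 and highest in control DE689, and the inner root sheath sum is highest in control DE684, at 57.8 CPM.

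The members varied between libraries of the same genotype more than most genes did. The within-group SD of log2(CPM + 0.5), pooled over both genotypes, had a median of 0.691 over the 36 members and of 0.143 over all genes tested. That SD depended on level. With all genes tested split into 10 equal bins by mean CPM, its median was 0.301 in the lowest bin and 0.0822 in the highest. By group the median was 0.440 for the scale keratins, 0.601 for the inner root sheath, 0.781 for the shaft and 0.707 for the Krtap genes. Krt36 (0.435) and Krt84 (0.446) varied more than 92.7% and 93.2% of all genes tested although their counts were high. The largest SD among the 36 members tested was that of Krtap22-2 at 1.26, and the smallest that of Krtap13-1 at 0.263, both singled out for these values.

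**Figure D5:**
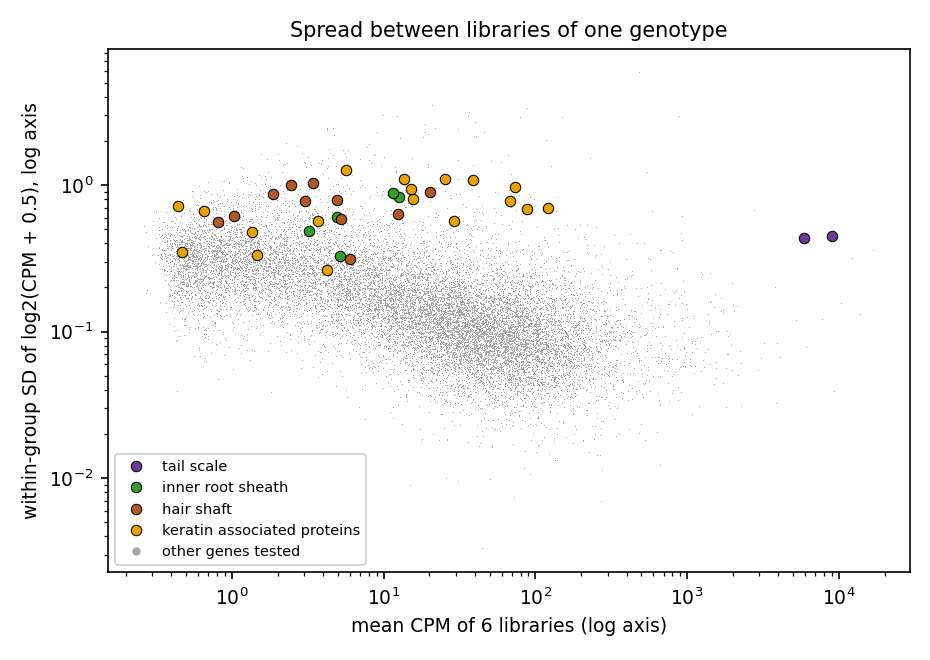
Within-group SD of log2(CPM + 0.5) (y axis, log scale) against mean CPM (x axis, log scale) for the members tested, coloured by group, and for all other genes tested in grey. Most members lie above the bulk of genes of like level, with SDs of 0.263 to 1.26.

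Regulators of hair differentiation were at moderate levels, with 6 changes above 0 and 8 below among the 14 tested. Of these, edgeR called 0, with 3 at an unadjusted p under 0.05, against 19.0% of all genes tested. DESeq2 called 2, Lef1 and Vdr, where it called 5.70% of all genes. The groups did not overlap for 2 higher and 1 lower of the 14, against 12.8% of all genes tested in each direction. Vdr, the vitamin D receptor, which hair cycling needs, stood at 287, 325 and 348 CPM in the knockouts and at 233, 233 and 275 CPM in the controls. The groups did not overlap for Vdr, and its change was 0.37 (SE 0.10, edgeR adjusted p = 0.105; DESeq2 adjusted p = 0.00647). Lef1, the Wnt effector of the hair precursor cells, stood at 11.6, 5.71 and 9.40 CPM in the knockouts and at 2.26, 5.04 and 2.93 CPM in the controls. The groups did not overlap for Lef1 either, and its change was 1.39 (SE 0.35, edgeR adjusted p = 0.105; DESeq2 adjusted p = 0.00195). Lef1 falls outside the rule for named genes and was named after its values were seen. Sox21, also outside that rule and named after its values were seen, was lower in each knockout library than in any control. It stood at 120, 104 and 107 CPM in the knockouts and at 131, 125 and 121 CPM in the controls (change -0.19, SE 0.07, edgeR adjusted p = 0.211). Gata3, a regulator of the inner root sheath, and Cux1 had changes of 0.02 (SE 0.09) and 0.08 (SE 0.13).

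Hoxc13 and Foxn1, regulators of hair keratin genes, fall outside the rule for named genes and were also looked at because of their role. Hoxc13 stood at 87.6, 56.1 and 92.6 CPM in the knockouts and at 104, 52.5 and 87.6 CPM in the controls (change -0.04, SE 0.26). Foxn1 stood at 60.1, 41.9 and 59.6 CPM and at 62.6, 38.0 and 66.6 CPM (change -0.05, SE 0.22). For both, the lowest libraries were DE685 and DE684, as for the scale keratins. With Msx2, Cux1 and Dlx3, they made 5 of the 14 regulators tested (35.7%) with those libraries lowest, against 8.10% of all genes tested.

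Of 10 tested structural genes and enzymes of hair, 0 were called by edgeR or DESeq2 (0 at an unadjusted p under 0.05 in edgeR), with 6 changes above 0 and 4 below. Tgm3, a transglutaminase that crosslinks hair and epidermal proteins, had a mean of 272 CPM and a change of 0.21 (SE 0.20, edgeR adjusted p = 0.618). S100a3, a calcium binding protein of the hair cuticle, stood at 31.0, 23.3 and 53.1 CPM in the knockouts and at 38.9, 38.0 and 85.1 CPM in the controls (change -0.59, SE 0.38, edgeR adjusted p = 0.443). Trichohyalin (Tchh), the matrix protein of the inner root sheath, had a mean of 23.6 CPM and a change of 0.03 (SE 0.19, edgeR adjusted p = 0.956). Krt39, a hair keratin outside the membership rule, stood at 2.37, 0.750 and 2.29 CPM in the knockouts and at 3.64, 1.62 and 7.61 CPM in the controls (change -1.23, SE 0.60, edgeR adjusted p = 0.309). Its order of libraries was that of Krt36 and Krt84, and it was named for that after its values were seen.

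Markers of other cells in the preparation were present at lower levels. The 4 companion layer and outer root sheath markers Krt75, Krt6a, Krt16 and Krt17 summed to 2175, 2081 and 2805 CPM in the knockouts and to 2169, 1771 and 1487 CPM in the controls. Of these 4, edgeR called 0 (1 at an unadjusted p under 0.05) and DESeq2 called Krt17 (change 0.52, DESeq2 adjusted p = 0.00752), and 4 of 4 changes were above 0. The 4 sebaceous markers summed to 516, 717 and 526 CPM and to 684, 735 and 677 CPM. Of these 4, edgeR called 0 (1 at an unadjusted p under 0.05) and DESeq2 called Mgst1 (change -0.31, DESeq2 adjusted p = 0.0339). Markers of cycling cells summed to 316 to 435 CPM over the 6 libraries, with 0 of 4 called by edgeR or DESeq2 and 0 at an unadjusted p under 0.05.

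The 6 fibroblast and dermal papilla markers summed to 137, 129 and 142 CPM in the knockouts and to 37.4, 79.1 and 46.9 CPM in the controls, with 1 of 5 tested called. That gene was Dcn, which encodes the matrix proteoglycan decorin, at 122, 112 and 123 CPM against 20.8, 40.5 and 34.4 CPM (change 1.90, SE 0.21, edgeR adjusted p = 0.00782). Col1a1 and Col3a1, defining fibroblast genes, stood at 3.01 to 12.6 CPM in all libraries and were highest in control DE684. Melanocyte markers summed to 62.9 to 100.3 CPM in the knockouts and 42.0 to 67.9 CPM in the controls, immune markers to 37.7 to 90.8 CPM and 18.5 to 75.1 CPM, and endothelial markers to 1.44 to 2.25 CPM and 2.18 to 3.33 CPM. In these 3 lists edgeR called 0 genes, with 2 of 5 melanocyte markers and no immune or endothelial marker at an unadjusted p under 0.05, and DESeq2 called 1, the melanocyte gene Pmel (change 0.55, DESeq2 adjusted p = 0.0412). The immune sum, like the scale keratins, was lowest in DE684 and DE685. No listed marker had a count of 0 in any library, and the part of these cells in the values of the hair genes was not tested.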

How the data were processed

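Polyadenylated RNA of trypsin and dispase isolated tail keratinocytes was made into stranded libraries, per the labels' protocols. The authors deposited estimated counts per gene, 53.5% to 58.3% of them whole within 1e-06, and a normalized signal that equalled each count times a constant per library plus 0.001. Per the submitters' processing notes, bcl2fastq 2.20, cutadapt 1.18, STAR 2.7.0f, Partek and mm10 were used; counter, strand setting and annotation are not given in the sources used here. Every row of the deposited table summed to at least 10.

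Counts were rounded, filtered with filterByExpr and TMM scaled, and knockout was tested against control with edgeR 4.0.16 (R 4.3.3). The design provided for rounding counts that were not whole. It did not hold the promoter search, the fit without both Y-linked libraries, or the orders of libraries by Y-linked transcripts. Alternatives used DESeq2 1.42.0, limma 3.58.1, other scalings and filters, Y-linked transcripts as a covariate, and each library left out. The scripts were tested on simulated data. Gene coordinates, exon lengths and transcript identities came from GENCODE M21. An exact permutation test of 3 against 3 cannot give a p below 0.1, so none is reported.

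The members, lists and tests were chosen with earlier results of these data known. Named genes were Krt36, Krt84, every keratin member that passed the filter or had a mean of at least 1 CPM, the 6 Krtap genes with the highest mean CPM and, of each list of hair genes, any called and the 3 highest by mean CPM; others are said to be outside this rule where named.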

Additional observations from a re-analysis of the deposited data

How the results depend on the processing

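No member was called under any alternative run: RLE or upper-quartile scaling, no filter, a mean of at least 1 CPM, DESeq2, limma-voom, limma on the authors' values plus 1, the covariate, each library left out, and, chosen after seeing the data, both libraries with Y-linked transcripts left out (0 of 38 called, 17 at an unadjusted p under 0.05, against 16.7% of all genes). Upper-quartile scaling, limma-voom, limma on the authors' values and the covariate each gave 4 Krtap changes above 0 and 14 below. Over all genes, 247 were called, against 879 with DESeq2, 409 with the covariate, 87 without both Y-linked libraries and 69 to 121 with 1 library left out; the cause was not tested.

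Changes turned sign as follows, and the cause was not tested. Without both Y-linked libraries: Krt25 0.36, Krt27 0.14, Krt34 -0.063, Krt81 -0.00081, Krt82 0.54 and Gata3 -0.024. With the covariate: Krt25 0.037 and Krt27 0.0019. Krt82 was 0.11 with limma-voom. Krt71 was -0.0019 with no filter and -0.013 on the authors' values. Leaving out 1 library gave ranges of -0.43 to 0.42 for Krt25, -0.26 to 0.25 for Krt27, -0.11 to 0.25 for Krt28, -0.37 to 0.41 for Krt71, -0.15 to 0.73 for Krt81, -0.75 to 0.51 for Krt82, -0.99 to 0.41 for Krt87, -0.054 to 0.086 for Gata3, -0.033 to 0.20 for Cux1 and -0.087 to 0.22 for Tchh. Krt36 ranged from -0.47 to -0.05 and Krt84 from -0.48 to -0.06. Lef1 passed with DESeq2 (1.39) and without both Y-linked libraries (2.01, edgeR adjusted p = 0.0287), and Vdr with DESeq2 (0.38).

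No paired analysis was possible because the columns carry no replicate numbers, and the replicate block was not run. Genes under 1 CPM rest on few counts, which limits Krt82, Krtap15, Krtap16-1 and Krtap19-5.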

Other observations

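Among the listed hair genes that did not pass the filter on low counts, both chosen for mention after their values were seen, Gprc5d, a receptor gene of hair forming cells, had 4, 41 and 31 counts in the knockout libraries and 8, 7 and 8 counts in the controls. Its highest libraries were knockouts DE685 and DE688, as for Krt31, Krt33a and Krt33b, and the groups overlapped. Shh, the hedgehog ligand made by hair matrix cells, had 2, 1 and 4 counts in the knockouts and 15, 7 and 13 in the controls, and its groups did not overlap. Neither gene was called in the fit without a filter (changes of 1.89 and -2.21, edgeR adjusted p = 0.282 and 0.134).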
